A study of Rattus norvegicus with 24 samples.

Results

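A set of 7 genes for subunits of the GABA-A receptor were followed in the brain of the rat 3 months after traumatic brain injury (TBI): Gabra2, Gabra3, Gabra4, Gabra5, Gabrb1, Gabrb2 and Gabrd, which are 7 of the 25650 gene names in the mRNA-seq table. They were chosen by name, and each was read at the locus that carries its name; Gabra4 names 2 loci, and the one with the higher mean was used. The series held 24 libraries of poly(A) RNA from 12 adult male Sprague-Dawley rats, 6 with lateral fluid-percussion injury and 6 sham-operated. Each rat gave 1 library of perilesional cortex and 1 of ipsilateral thalamus. The paper states that the injured rats were selected for a chronic inflammatory phenotype, so the results concern such rats and not all injured rats. The 4 groups of 6 libraries are called TBI cortex, sham cortex, TBI thalamus and sham thalamus, and a library is named by its rat. The labels give no genetic change or drug treatment for any group. The comparisons asked how injury altered each subunit gene in each region, whether that differed between the regions, and how the regions differed from each other.

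GABA-A receptors are chloride channels opened by GABA, the main inhibitory transmitter of the adult brain, and each is built from 5 subunits, usually alpha, beta and a gamma or delta subunit. Receptors with a gamma subunit mostly cluster at synapses and carry brief inhibition. Receptors with alpha4, beta and delta subunits, which are common on thalamic relay neurons, and receptors with alpha5 lie largely outside synapses and carry tonic inhibition. The alpha2 and alpha3 subunits occur mostly at synapses, alpha3 being typical of the reticular thalamic nucleus, and beta2 is found in abundant synaptic receptors and with alpha4 and delta in the thalamus.

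The deposited table gives normalized counts, the number of sequenced fragments at a locus divided by a size factor of the library, and the libraries held 30568927 to 54608922 fragments. All 7 genes were well covered, the lowest value being 844 fragments (Gabra5) in a single library. Transcript lengths were not used here, so levels are compared between groups and not between genes. Log2 fold changes below are on the log2(normalized count + 1) scale with their SE, from limma, and p-values were adjusted by the Benjamini-Hochberg method over all named loci tested. The 12 rats are separate animals.

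The regional labels matched their markers: thalamus markers summed to 74485 to 93965 in sham thalamus and 6076 to 6729 in sham cortex. Cortex markers summed to 128790.0 to 152132 in sham cortex and 18123 to 25168 in sham thalamus. A group of 6 libraries stood apart by choroid plexus markers, with summed counts over 10000: TBI rat 45 and sham rats 26 and 34 in cortex, and TBI rat 45 (269748), sham rat 34 and sham rat 50 in thalamus. The other 18 libraries lay between 669.88 and 3175. The tests of injury and of region were therefore also run without these 6 libraries, a choice made after seeing the data, and the values are given where a call changed. Neuron markers moved with injury: 11 of 15 were lower in TBI cortex and 13 of 15 in TBI thalamus, none was higher, and their summed count did not overlap between TBI and sham in either region (371160.0 to 469150.0 against 503584 to 535514 in cortex, and 283575 to 361083 against 424701 to 504923 in thalamus). Microglia markers moved the other way, with 13 and 14 of 14 higher in cortex and thalamus. Of 10 astrocyte markers, 5 were higher and 2 lower in cortex, and 5 were higher and none lower in thalamus. The summed count of the astrocyte markers was higher without overlap (408874 to 453969 against 376118 to 397258 in cortex, and 406579 to 467151 against 286290.0 to 319156 in thalamus). Thalamus markers were lower for 7 of 11 in TBI thalamus, with a median sum of 71399 against 82149.8 in sham thalamus. The part of the microglia, astrocyte and thalamus markers in the results below was not tested. In bulk tissue fewer cells of a type and less RNA per cell cannot be told apart.

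In TBI cortex 5 of the 7 genes were lower than in sham cortex and none was higher, with Gabrb2 changed most (log2 fold change -0.48) and Gabra2 and Gabrb1 not past the threshold. All 7 entered the test. Of all 15493 loci tested there, 29.2% were called, 14.9% in the lower direction, and the median log2 fold change of the 7 was -0.23 against -0.01 over all loci. In TBI thalamus 3 of the 7 were lower (Gabrd, Gabra4 and Gabrb2), 1 was higher (Gabra2), and 3 did not pass, against 35.4% of 15564 loci called, 20.9% lower and 14.5% higher. The values of Gabra4 and Gabrd did not overlap between TBI and sham thalamus, which held in the lower direction for 10.7% of all loci. In cortex no member was free of overlap between the groups, which 7.02% of all loci were with TBI higher and 5.45% with TBI lower; 7.46% of loci in thalamus were so with TBI higher, and no member.

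**Figure D1:**
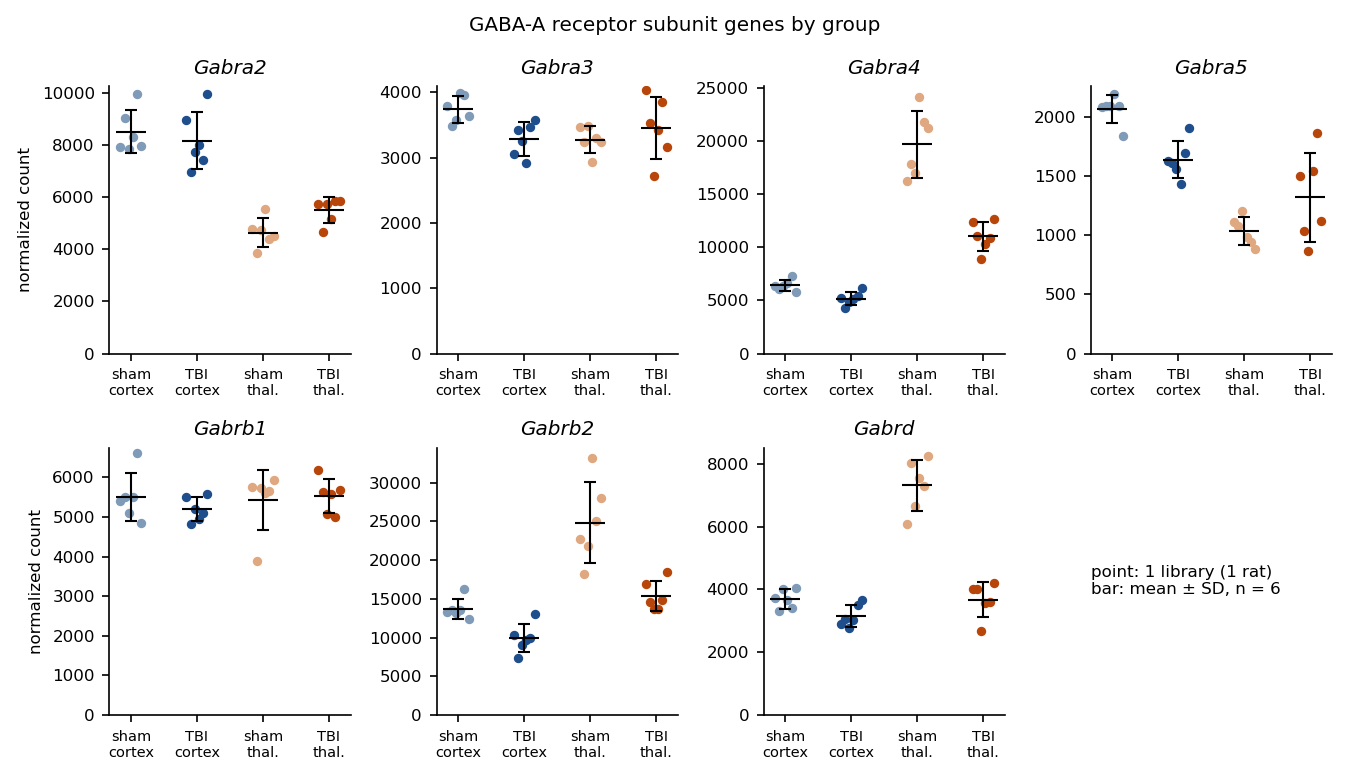
Normalized counts of the 7 subunit genes (vertical axis, 1 panel per gene, from 0) in sham cortex, TBI cortex, sham thalamus and TBI thalamus; each point is 1 library, and the bar is the mean ± SD of 6 rats. Gabra4 and Gabrd in TBI thalamus lie wholly below sham thalamus, while Gabra5 in TBI thalamus spreads from 863 to 1859.8.

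Gabrd encodes delta, the subunit that defines a major class of extrasynaptic receptors. In sham thalamus its normalized count had a lowest value of 6092, a median of 7417 and a highest value of 8238, and in TBI thalamus 2664, 3801 and 4206. All 6 TBI libraries thus lay below every sham library, and the TBI mean, 3673 ± 553 (SD, n = 6), was 0.50 of the sham mean of 7308 ± 815 (SD, n = 6). The log2 fold change was -1.0 ± 0.10 (SE), with a limma adjusted p of 7.98e-06, and 0.66% of all loci had a lower fold change in this comparison. In cortex the lowest, median and highest values were 3311, 3695 and 4055 in sham and 2782, 3039.6 and 3656 in TBI. The cortical groups overlapped, with 4 of 6 TBI libraries below all sham libraries, and the change was small (-0.23 ± 0.07 SE, limma adjusted p = 0.0281). That cortical call was lost on leaving out any 1 of TBI rats 22, 45 and 52 and sham rats 26, 34 and 55 (adjusted p from 0.0536 to 0.0665), and without the 3 cortical libraries with choroid plexus markers it was -0.16 (adjusted p = 0.228).

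Gabra4 encodes alpha4, the alpha subunit found with delta in thalamic relay neurons. Its counts in sham thalamus were 16211.5 at the lowest, 19536 at the median and 24189 at the highest, and in TBI thalamus 8912, 10989.5 and 12627. Again every TBI library lay below every sham library. The log2 fold change was -0.83 ± 0.11 (SE), or 0.56-fold, with a limma adjusted p of 4.63e-05. In cortex the values were 5789, 6356 and 7344 in sham and 4289, 5201 and 6121 in TBI, with 5 of 6 TBI libraries below all sham libraries. The cortical change was -0.32 ± 0.08 (SE, limma adjusted p = 0.0063), and without the 3 cortical libraries with choroid plexus markers it was -0.30 (adjusted p = 0.0576). The second locus named Gabra4 lies at the same position. The kit keeps the strand of the RNA, but the strand of the second locus was not examined. That locus held 438 ± 115 counts in sham thalamus and 281 ± 61.1 in TBI thalamus (SD, n = 6).

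For both genes the injury effect itself differed between the regions. The thalamic effect minus the cortical effect was -0.77 ± 0.13 (SE) for Gabrd (limma interaction term, adjusted p = 0.000858) and -0.51 ± 0.14 for Gabra4 (adjusted p = 0.0224). Of 15678 loci, 7.26% had such a difference, 4.54% with the lower and 2.72% with the higher effect in thalamus. Without the 6 libraries with choroid plexus markers the Gabrd difference was -0.78 (adjusted p = 0.00211) and the Gabra4 difference was -0.48 (adjusted p = 0.115). The ratio of Gabra4 to Gabrd within a library, which uses no scaling between libraries, was 2.70 ± 0.35 in sham thalamus and 3.02 ± 0.20 in TBI thalamus (SD, n = 6). Its groups overlapped, and the exact two-sided permutation test gave p = 0.0693 (0.139 after Benjamini-Hochberg adjustment over 6 ratio tests), with 0.0303 after leaving out sham rat 38. In cortex the ratio was 1.75 ± 0.25 in sham and 1.64 ± 0.14 in TBI (SD, n = 6; exact permutation p = 0.396).

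Gabrb2 encodes beta2 and Gabrb1 encodes beta1, alternative beta subunits. In cortex Gabrb2 counted 12418, 13423 and 16250.2 in sham (lowest, median and highest) and 7371, 9869 and 12984 in TBI. Of the TBI libraries 5 of 6 were below all sham libraries, and the remaining library, rat 63, overlapped the sham range. Its log2 fold change was -0.48 ± 0.10 (SE, limma adjusted p = 0.0032). In thalamus the values were 18179, 23886 and 33248 in sham and 13698, 14687 and 18429.9 in TBI, again with 5 of 6 TBI libraries below all sham libraries. The thalamic change was -0.68 ± 0.12 (SE, limma adjusted p = 0.000797). The 2 effects differed by -0.20 ± 0.17 (95% interval -0.55 to 0.16, adjusted p = 0.548), so no regional difference was detected for Gabrb2.

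Gabrb1 moved little. Its lowest, median and highest counts were 4842, 5453 and 6621 in sham cortex and 4827, 5153 and 5587 in TBI cortex, and 3888, 5699 and 5933 in sham thalamus and 5009.65, 5604 and 6184 in TBI thalamus. The groups overlapped in both regions. The change was -0.08 in cortex (95% interval -0.22 to 0.07, limma adjusted p = 0.416) and 0.04 in thalamus (95% interval -0.16 to 0.24, adjusted p = 0.801), the latter turning to -0.06 without sham rat 32.

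The balance of the 2 beta genes within each library shifted. The ratio of Gabrb2 to Gabrb1 was 2.50 ± 0.06 in sham cortex and 1.90 ± 0.27 in TBI cortex (SD, n = 6), and the lowest sham ratio, 2.45, exceeded the highest TBI ratio, 2.32. In thalamus it was 4.58 ± 0.76 in sham and 2.78 ± 0.28 in TBI (SD, n = 6), with the lowest sham ratio at 3.80 and the highest TBI ratio at 3.24. Each of the 6 TBI libraries was below each sham library in both regions. The exact two-sided permutation test gave p = 0.0022 in each region, the smallest that 6 rats against 6 allow, and 0.0065 after adjustment over 6 tests (0.0476 in each region by the same exact test without the libraries with choroid plexus markers). For the third pair, Gabra2 to Gabra3, the ratio was 2.28 ± 0.22 in sham cortex and 2.49 ± 0.37 in TBI cortex, and 1.42 ± 0.24 in sham thalamus and 1.62 ± 0.30 in TBI thalamus (SD, n = 6; exact permutation p = 0.255 and 0.195).

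**Figure D2:**
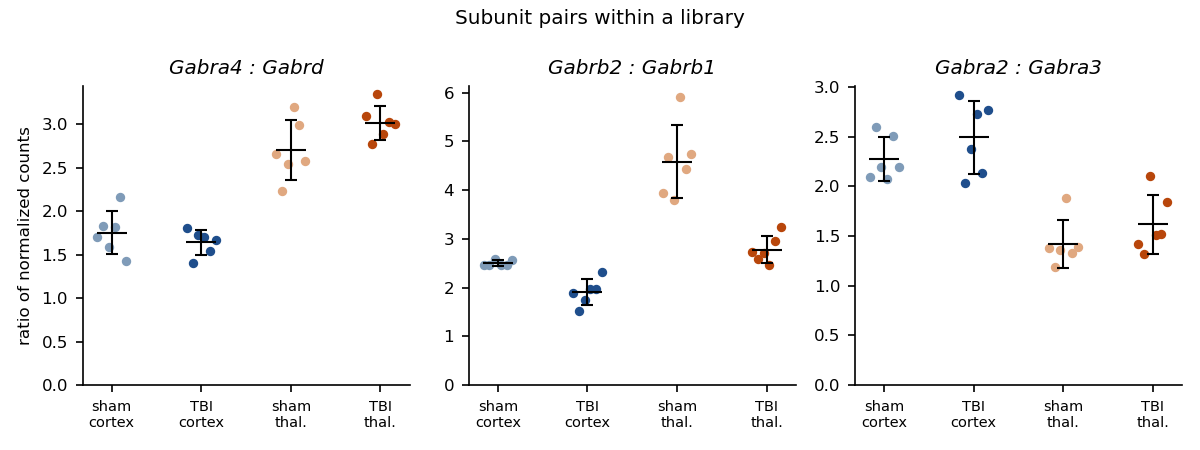
Ratios of normalized counts of subunit pairs within a library (vertical axis, from 0) for Gabra4 to Gabrd, Gabrb2 to Gabrb1 and Gabra2 to Gabra3 in the 4 groups; each point is 1 library and bars are mean ± SD of 6 rats. The TBI points of Gabrb2 to Gabrb1 lie below all sham points in cortex and in thalamus, and the other pairs overlap.

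Gabra5 encodes alpha5, an extrasynaptic subunit best known from the hippocampus. In cortex its counts were 1840.5, 2086 and 2192 in sham (lowest, median and highest) and 1429, 1619 and 1906 in TBI. In cortex, 5 of 6 TBI libraries were below all sham libraries. The log2 fold change was -0.34 ± 0.06 (SE, limma adjusted p = 0.00148), and in 1 fit over all 24 libraries the same change had an adjusted p of 0.0501.

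In thalamus Gabra5 spread widely after injury. Sham thalamus held 882, 1029 and 1207, and TBI thalamus held 863 (rat 45), 1032 (rat 24), 1115 (rat 63), 1503 (rat 22), 1542 (rat 52) and 1859.8 (rat 56). Of these, 3 TBI libraries were above all sham libraries, 1 was below them all and 2 were within their range, so that the coefficient of variation was 28.5% in TBI and 11.5% in sham. The mean change, 0.31 ± 0.16 (SE), did not pass (limma adjusted p = 0.145), but without rat 45, the library with the most choroid plexus counts, it was 0.42 (adjusted p = 0.0281). Without all 3 thalamic libraries with choroid plexus markers it was 0.45 (adjusted p = 0.0447). Summed hippocampus markers were 11908 (rat 24) to 14843 (rat 56) after injury, with 13910 in rat 45, and 13264 to 15235 in sham rats. Single markers differed from the sum. Of all thalamic libraries, rat 45 was highest for Dsp (284), Nptx1 (2950), Man1a1 (1004) and Fibcd1 (309) and lowest for Prox1 (2641) and Ociad2 (453). Calb1 was highest in rat 56 (7215). Of 10 hippocampus markers tested, 3 were lower and 1 higher in TBI thalamus, beside 20.9% and 14.5% of all loci. C1ql2 was 329 to 709 after TBI and 797 to 1744 in sham rats, without overlap. Wfs1 was 954 to 1352 after TBI and 1387 to 1854 in sham rats, also without overlap, which held in the lower direction for 10.7% of all loci. The part of the hippocampus markers in the spread of Gabra5 was not tested.

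The injury effect on Gabra5 differed between the regions by 0.65 ± 0.18 (SE, limma interaction term, adjusted p = 0.0285), lower in TBI cortex and with a positive estimate in thalamus. Leaving out sham thalamus rat 55 ended that call (0.60, adjusted p = 0.0569), and without the 6 libraries with choroid plexus markers it was 0.77 (adjusted p = 0.0337).

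Gabra2 encodes alpha2. In cortex its counts were 7847, 8129 and 9951 in sham (lowest, median and highest) and 6970.35, 7851 and 9935 in TBI, and the groups overlapped (-0.06, 95% interval -0.24 to 0.11, limma adjusted p = 0.592). In thalamus the values were 3837, 4626 and 5522 in sham and 4642, 5740.0 and 5854 in TBI. Of 6 TBI libraries, 4 were above all sham libraries. The thalamic estimate of Gabra5 was larger (0.31) but did not pass (limma adjusted p = 0.145). In the main fits Gabra2 was the only one of the 7 genes called higher after injury, at 0.25 ± 0.08 (SE, limma adjusted p = 0.026). Leaving out any 1 of TBI rats 22, 56 and 63 and sham rats 32, 50 and 55 ended the call (adjusted p from 0.0503 to 0.0557), as did leaving out the 3 thalamic libraries with choroid plexus markers (0.23, adjusted p = 0.111). The difference between the regional effects, 0.32 ± 0.12 (SE), did not pass (adjusted p = 0.12; 0.0474 without TBI cortex rat 63).

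Gabra3 encodes alpha3. Its cortical counts were 3479, 3712 and 3991 in sham (lowest, median and highest) and 2924, 3341 and 3583 in TBI, with 5 of 6 TBI libraries below all sham libraries. The change was small, -0.19 ± 0.06 (SE, limma adjusted p = 0.0231). It lost its call without TBI rat 22 or 52 or sham rat 38 or 50 (adjusted p from 0.0502 to 0.0572), and without the 3 cortical libraries with choroid plexus markers it was -0.20 (adjusted p = 0.101). In thalamus the values were 2928, 3268 and 3487 in sham and 2725, 3475 and 4032 in TBI. The TBI range there enclosed the sham range, and the change was 0.07 (95% interval -0.11 to 0.24, adjusted p = 0.568). Its regional difference of 0.25 ± 0.10 (SE) did not pass (adjusted p = 0.138), but did without TBI thalamus rat 45 (0.32, adjusted p = 0.0269).

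**Figure D3:**
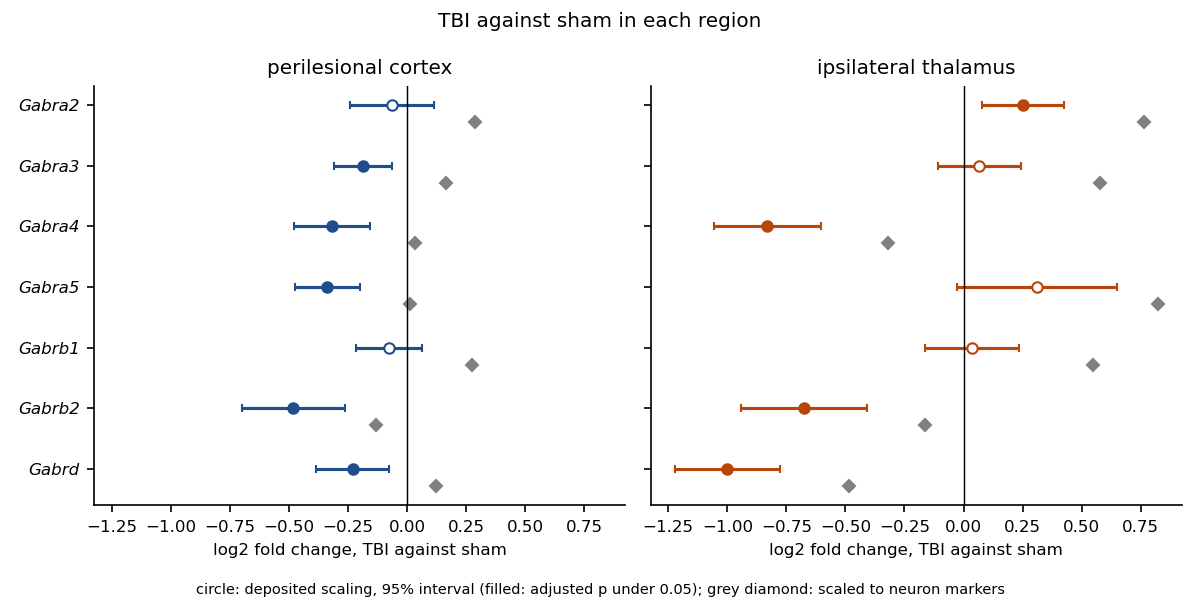
Log2 fold change of TBI against sham (horizontal axis) for the 7 genes in perilesional cortex and ipsilateral thalamus, with circles for the deposited scaling and bars for the 95% interval, filled where the adjusted p was under 0.05; grey diamonds give the value after scaling each library to its neuron markers. In thalamus Gabra4 (-0.83), Gabrd (-1.0) and Gabrb2 (-0.68) lie left of 0 under both scalings, while in cortex Gabrb2 alone is left of 0 under both. Scaled to neuron markers, Gabrb2 did not pass in either region.

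Relative to the neuron markers the picture changed in cortex. When each library was scaled to its mean log2 neuron marker level, the median of all loci rose by 0.34 in cortex and 0.49 in thalamus, and the cortical fold changes of Gabra2, Gabra3, Gabra4, Gabra5, Gabrb1 and Gabrd turned positive (0.01 for Gabra5 and 0.03 for Gabra4 up to 0.29 for Gabra2). The cortical decrease of Gabrb2 was -0.13 ± 0.09 (SE, limma adjusted p = 0.192). In thalamus Gabrd and Gabra4 were still lower, at -0.49 ± 0.08 (SE, limma adjusted p = 0.000101) and -0.32 ± 0.08 (adjusted p = 0.00123), whereas Gabrb2 was at -0.16 ± 0.10 (adjusted p = 0.131). On that scale the remaining thalamic values were 0.76 for Gabra2, 0.82 for Gabra5, 0.58 for Gabra3 and 0.55 for Gabrb1. Measured from the shifted median of all loci, Gabrd stood at -0.97, Gabra4 at -0.81 and Gabrb2 at -0.65 in thalamus, and Gabrb2 at -0.47, Gabra5 at -0.33 and Gabra4 at -0.31 in cortex. The scaling moves all loci of a library by the same factor, and subtracting the median nearly undoes it. These last values therefore repeat the deposited scaling and are no separate check.

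**Figure D4:**
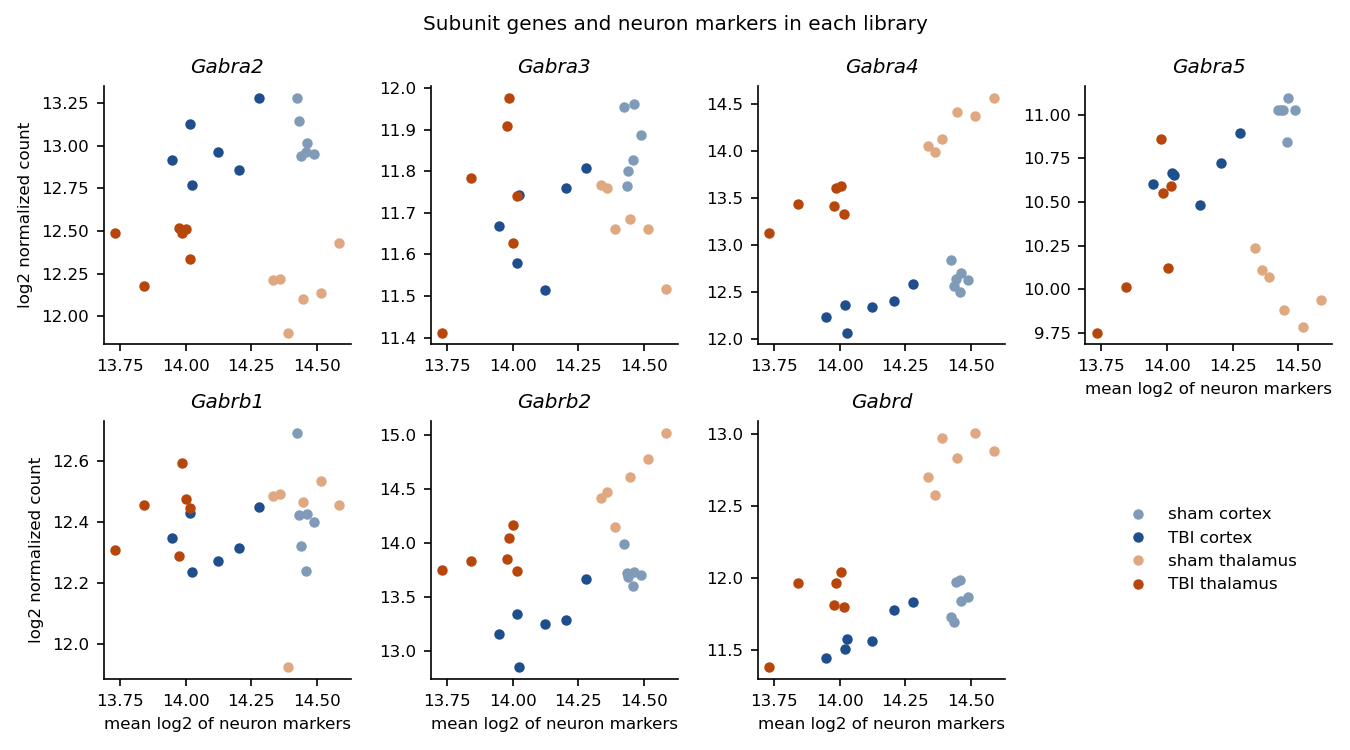
Log2 normalized count of each subunit gene (vertical axis) against the mean log2 normalized count of 15 neuron markers (horizontal axis) in the 24 libraries, coloured by group. TBI libraries lie to the left of sham libraries of their region in every panel, and Gabra4, Gabrb2 and Gabrd in TBI thalamus are also lower than in sham thalamus.

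The regional pattern in sham animals set the genes apart, and 62.2% of all 15582 loci tested differed between the regions there, 33.9% being higher and 28.3% lower in thalamus. In sham rats 3 genes were higher in sham thalamus than in sham cortex: Gabra4 by 1.61 ± 0.09 (SE, limma adjusted p = 3.78e-10), Gabrd by 0.98 ± 0.07 (adjusted p = 1.24e-08) and Gabrb2 by 0.84 ± 0.11 (adjusted p = 1.01e-05). Their values did not overlap between the regions, which held in the higher direction for 23.9% of all loci. Another 3 were lower in sham thalamus: Gabra5 at -1.0 ± 0.07 (adjusted p = 5.71e-09) and Gabra2 at -0.88 ± 0.08 (adjusted p = 8.95e-08), both without overlap (19.2% of loci in that direction), and Gabra3 at -0.19 ± 0.05 (adjusted p = 0.0043, and 0.0502 after scaling to neuron markers). Gabrb1 did not differ detectably (-0.02, 95% interval -0.23 to 0.18, adjusted p = 0.841), and its sign turned without sham cortex rat 50 or sham thalamus rat 32.

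After TBI the regional difference was called for 3 of the 7 genes, against 57.5% of 15737 loci (31% higher in thalamus and 26.5% lower). Gabra4 and Gabrb2 were higher in TBI thalamus than in TBI cortex, by 1.09 ± 0.09 (SE, limma adjusted p = 1.2e-07) and 0.64 ± 0.11 (adjusted p = 0.000229), and Gabra2 was lower, at -0.56 ± 0.09 (adjusted p = 5.36e-05). These 3 did not overlap between the regions, which held for 19.5% of loci higher in thalamus and 16.5% lower. Gabrd, with means of 3673 ± 553 in TBI thalamus and 3155 ± 347 in TBI cortex (SD, n = 6), had a difference of 0.21 ± 0.10 that did not pass (adjusted p = 0.0947). It passed with the rat as a block (adjusted p = 0.0247), without TBI thalamus rat 45 (0.30, adjusted p = 0.00326) and without both libraries of TBI rat 45 (0.27, adjusted p = 0.00763). Gabra5 was at -0.36 ± 0.16 (adjusted p = 0.0641, and 0.0457 with the rat as a block), and it passed without TBI thalamus rat 52 (-0.41, adjusted p = 0.0448) or 56 (-0.46, adjusted p = 0.0111). Gabra3 and Gabrb1 were at 0.06 and 0.09 (adjusted p = 0.558 and 0.218).

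Ordered by mean level, Gabra4 ran from TBI cortex through sham cortex and TBI thalamus to sham thalamus, and each tested neighbouring pair differed. Gabrb2 had the same order. Gabrd ran from TBI cortex (3155) through TBI thalamus (3673) and sham cortex (3694) to sham thalamus; the pair of TBI regions did not pass without the rat as a block (adjusted p = 0.0947) and did with it (0.0247), and the middle pair was not tested. Gabra5 and Gabra2 ran from sham thalamus through TBI thalamus and TBI cortex to sham cortex. For Gabra2 the cortical pair did not differ beyond its spread, for Gabra5 the thalamic pair did not either, and its pair of TBI regions did not pass without the rat as a block (adjusted p = 0.0641) and did with it (0.0457). The group means of Gabra3 lay between 3276 (sham thalamus) and 3738 (sham cortex), and those of Gabrb1 between 5197 (TBI cortex) and 5528 (TBI thalamus), with no neighbouring pair that was tested past the threshold.

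The genes also differ in where they lie. Positions are the deposited coordinates, whose build the labels give as Rnor_5.0 while the methods of the study name RGSC3.4 for the alignment. On chromosome 14 the subunit genes come in the order Gabrb1 (38440951 to 38951179), Gabra4 (38959057 to 39042885), Gabra2 (39472750 to 39619289) and Gabrg1. The gap between Gabrb1 and Gabra4 is 7.88 kb, that between Gabra4 and Gabra2 429.87 kb, and that between Gabra2 and Gabrg1 158.16 kb. Whether genes outside the family lie in these gaps was not examined. In thalamus these clustered genes had changes of 0.04 for Gabrb1, -0.83 for Gabra4, 0.25 for Gabra2 and 0.29 for Gabrg1. Gabrb2 lies on chromosome 10 (27816776 to 28032644) and Gabra5 on chromosome 1 (113844234 to 113955986); its locus is joined with a further gene identifier. Gabra3 is listed on chromosome 1 (148142030 to 148373379), whereas RefSeq on GRCr8 places it on chromosome X, and Gabrd stands on chromosome 5 (176255670 to 176267624).

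RefSeq promoter windows on GRCr8, from 250 bases before to 50 after the start, were matched for 6 of the 7 genes, Gabra2 being the exception. The 3 genes that were lower in both regions are shown, since these were the calls that both regions shared, 5′ to 3′ along the gene, with capitals marking letters of an early growth response (EGR) consensus:

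Gabra4 (chr14:36944497-36944796, plus strand): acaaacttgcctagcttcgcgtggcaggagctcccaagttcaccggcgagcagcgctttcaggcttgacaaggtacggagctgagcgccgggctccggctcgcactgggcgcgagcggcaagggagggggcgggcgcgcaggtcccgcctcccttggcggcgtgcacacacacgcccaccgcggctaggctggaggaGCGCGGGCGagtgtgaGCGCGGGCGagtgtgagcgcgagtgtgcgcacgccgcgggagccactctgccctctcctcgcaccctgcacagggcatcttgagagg
Gabrd (chr5:171252660-171252959, minus strand): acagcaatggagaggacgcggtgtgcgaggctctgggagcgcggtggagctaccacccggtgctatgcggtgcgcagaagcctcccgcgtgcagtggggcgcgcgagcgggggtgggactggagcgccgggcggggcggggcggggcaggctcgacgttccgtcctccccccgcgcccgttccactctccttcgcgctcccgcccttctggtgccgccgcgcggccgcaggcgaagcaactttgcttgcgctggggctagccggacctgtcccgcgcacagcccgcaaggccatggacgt
Gabrb2 (chr10:27439543-27439842, plus strand): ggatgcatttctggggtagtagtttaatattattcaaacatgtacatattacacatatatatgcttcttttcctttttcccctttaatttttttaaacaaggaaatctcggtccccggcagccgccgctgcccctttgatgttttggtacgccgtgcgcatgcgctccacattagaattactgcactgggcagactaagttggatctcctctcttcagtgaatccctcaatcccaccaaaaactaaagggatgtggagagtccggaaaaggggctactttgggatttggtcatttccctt

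A set of 3 motifs were searched on both strands: GCGNGGGCG (EGR), TGACGTCA (the cyclic AMP response element) and TATAAA (the TATA box). The Gabra4 window holds the EGR letters at 2 places, starting 53 and 37 bases before the start; 4.98% of 33469 RefSeq windows hold them at least once. None of the other 5 windows holds them, and none of the 6 holds the cyclic AMP response element, which 1.83% of all windows hold. The TATA letters are in the Gabra3 window alone of the 6 (14.2% of all windows). The GC content was 70.7% for Gabra4, 73.7% for Gabrd and 76.3% for Gabra5, with 35, 40 and 42 CpG dinucleotides, against 44.0% and 9 for Gabrb2, 49.3% and 11 for Gabrb1, and 39.3% and 0 for Gabra3. The median of all windows was 51.7% and 7. Of the 3 genes lower in both regions, Gabra4 and Gabrd thus lay above the median GC content and Gabrb2 below it. All 3 had more CpG dinucleotides than the median window, but so had Gabra5 and Gabrb1.

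Among other subunit genes of the family, Gabrg1 and Gabrq were higher in TBI thalamus (0.29, limma adjusted p = 0.00276, and 0.61, adjusted p = 0.00881). Gabrr2, a rho subunit at low counts (means 27.5 in sham and 42.5 in TBI), was higher in cortex (0.65, adjusted p = 0.0371, but 0.0844 without the libraries with choroid plexus markers). Gabra6, Gabrg3, Gabre, Gabrp, Gabrr1 and Gabrr3 did not pass in either region where they were tested. The thalamic minus cortical effect passed for none of these genes where it was tested.

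Around the receptor, 6 of 16 genes for anchoring and trafficking were lower in cortex and none higher, beside 14.9% of all loci lower and 14.3% higher, and in thalamus 9 were lower and 1 higher, beside 20.9% lower and 14.5% higher. Their median log2 fold changes were -0.12 and -0.16, against -0.01 and -0.02 over all loci. Lower in cortex were, among others, Gphn, the gene of the scaffold protein gephyrin (-0.26, limma adjusted p = 0.00156), and Gabarapl1 (-0.20, adjusted p = 0.018). Lower in thalamus were, among others, Trak1 (-0.32, adjusted p = 0.000409) and Nlgn2, an adhesion molecule of inhibitory synapses (-0.28, adjusted p = 0.00196). The locus of Nlgn2 is joined with Spem1. That of Gabarap, the 1 gene higher in thalamus, is joined with Ctdnep1, so the counts of each cover both names. Without the libraries with choroid plexus markers 2 of the 16 were lower in cortex and 6 in thalamus, none was higher, and Gabarapl1 was at -0.16 in cortex (adjusted p = 0.157).

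Among 8 genes of GABA synthesis and transport, 5 were lower and 1 higher in cortex, and 5 lower and none higher in thalamus, to be read beside the same shares of all loci. Without the libraries with choroid plexus markers 2 were lower and none higher in cortex, and 4 lower and 1 higher in thalamus. The GABA-synthesising enzymes Gad1 and Gad2 were at -0.45 (limma adjusted p = 0.00015) and -0.30 (adjusted p = 0.00148) in cortex and at -0.85 each in thalamus (adjusted p = 0.0134 and 0.00958). Slc32a1, the vesicular GABA transporter, was lower in thalamus (-0.91, adjusted p = 0.0111), and the membrane transporter Slc6a13 was higher in cortex (0.78, adjusted p = 0.0229, but 0.48 and 0.0622 without the libraries with choroid plexus markers) and at 0.60 in thalamus (adjusted p = 0.287, but 0.53 and 0.0294 without them). The summed inhibitory neuron markers, a list that shares genes with this one, were 14784 to 24039 after TBI and 33848 to 50364 in sham rats in thalamus, without overlap, and 34005 to 40148 against 44362 to 45697 in cortex. Of the list, 7 of 13 tested were lower in thalamus and 4 of 14 in cortex, none higher, beside 20.9% and 14.9% of all loci lower. The mean log2 level of the list overlapped in both regions. In cortex it was 9.81 to 10.20 after TBI and 9.94 to 10.15 in sham rats. In thalamus it was 7.70 to 8.77 after TBI and 8.68 to 9.67 in sham rats.

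Of the 4 GABA-B receptor genes with a locus, 2 were lower in each region, beside 14.9% of all loci lower in cortex and 20.9% in thalamus. In cortex these were Kctd8 (-0.59, limma adjusted p = 0.00985) and Gabbr2 (-0.20, adjusted p = 0.00421). In thalamus they were Gabbr2 (-0.45, adjusted p = 0.000467) and Gabbr1 (-0.18, adjusted p = 0.0341, but 0.0913 without the libraries with choroid plexus markers). Without those libraries 2 were lower in cortex and 1 in thalamus. Of the 2 chloride cotransporters, Slc12a5, which keeps neuronal chloride low, was lower in thalamus (-0.42, adjusted p = 0.000304) and at -0.14 in cortex (adjusted p = 0.102), and Slc12a2 did not pass in either region.

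Among 12333 loci with a single name and a mean of at least 100, those nearest to each member were found by the root mean square difference of centred log2 profiles over the 24 libraries. This is a description, since all profiles share libraries. Nearest to Gabra4 were Opn3 (0.16), Chrnb2 (0.17) and RIMKLA (0.17), against a spread of Gabra4 itself of 0.76. Sprn (0.17) and Cacng7 (0.18) were among the 3 nearest to Gabrd, and Gabrb2 had Reps2 (0.09), Hspa4l (0.13) and Eif5a2 (0.15). Reps2 fell from a mean of 12250 in sham thalamus to 8098 in TBI thalamus and from 7176 to 5558 in cortex. The nearest loci were Pnma1, ENSRNOG00000046313 and SYT17 for Gabra5 (0.19 to 0.21), Acvr2a, Ppp1r12a and Rnf2 for Gabra2 (0.12 each), Phyhipl, Syt13 and Fam131b for Gabra3 (0.09 to 0.10), and Pak3, Tmed8 and Ubr1 for Gabrb1 (0.08 to 0.09). No other member was among the 3 nearest of any member.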

How the data were processed

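The authors prepared poly(A) libraries with a stranded kit, and per the labels the reads were handled with TopHat2 2.0.11, Bowtie2 2.2.2 and Cufflinks 2.2.1 on Rnor_5.0. The deposited values are a signal in whole fragments divided by 1 size factor per library; low values were whole multiples of that step (within 0.02 of a step) in 100% of cases, so fragments were recovered. Of 42334 loci, 15693 without a gene name (1.90% to 2.23% of counts) were left out.

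Each comparison was fitted with limma 3.58.1 (R 4.3.3) on log2(value + 1) over named loci with a mean of at least 10, with the threshold at 0.05 and Benjamini-Hochberg adjustment. Alternatives were edgeR 4.0.16 on recovered fragments (4533 loci called in cortex and 5481 in thalamus), other scalings, pseudocounts and filters, the rat as a block and single libraries left out. Both regions come from the same rats, so the numbers pair the samples: deviations of a rat's libraries correlated at 0.00393 to 0.569, above 0.1 in 10 of 12 rats. Ratios were tested by exact permutation. Scripts were tested on simulated data. All members were named, and of each pathway list up to 3 called genes per region with the largest change, plus the other subunits; some items these rules name are not reported here. Members and lists were chosen with earlier results of these data known.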

Additional observations from a re-analysis of the deposited data

Results flagged for a closer look

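Of the 28 sets of 6 values (7 genes in 4 groups), 4 held a library whose gap to its neighbour exceeded the 95% limit of Dixon's test, which chance gives in about 1 of 20. Gabra5 in sham cortex was lowest in rat 55 (1840.48). Gabrb1 was highest in sham cortex in rat 50 (6620.95) and lowest in sham thalamus in rat 32 (3887.63). Gabrb2 in sham cortex was highest in rat 50 (16250.2), the same library as for Gabrb1, and the ratio of the 2 genes in sham cortex nevertheless lay between 2.45 and 2.58.

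The injury effect differed between thalamus and cortex by the limma interaction term for Gabra4 (-0.51), Gabra5 (0.65) and Gabrd (-0.77). By the same test Gabra4 did not pass without the libraries with choroid plexus markers (adjusted p = 0.115). Gabra5 did not pass without sham thalamus rat 55 (adjusted p = 0.0569).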

How the results depend on the processing

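The decreases of Gabrd, Gabra4 and Gabrb2 in thalamus and of Gabrb2 in cortex kept their direction under every alternative run, and their calls under all but the scaling to neuron markers, where Gabrb2 lost its call in both regions. In cortex that scaling ended all 5 decreases; the 3 members it called, Gabra2, Gabrb1 and Gabra3, were higher, and it reversed Gabra2 (0.29), Gabra3 (0.16), Gabra4 (0.034), Gabra5 (0.014), Gabrb1 (0.28) and Gabrd (0.12); it gave 11287 called loci in cortex against 4531 and 12781 in thalamus against 5516, 5 members called for the difference between regions and 6 for the TBI regions. One fit of all 24 libraries left 2 members called in cortex (Gabra3, Gabra5 and Gabrd at adjusted p = 0.0568, 0.0501 and 0.0709), and leaving out the libraries with choroid plexus markers 2 (with 2162 loci called, and 422 against 1138 for the regional difference). Leaving out single libraries gave 3 to 5 members called in cortex and 3 to 5 in thalamus, and Gabrb1 ranged from -0.058 to 0.064 in thalamus and from -0.060 to 0.069 between sham regions (0.030 without sham cortex rat 50). The rat as a block raised the members called between the TBI regions from 3 to 5 and changed no other call of a member. Of the thalamic calls 59.0% were lower, but 45.7% under TMM and 47.7% under upper quartile scaling; for the regional difference 62.5% were lower, but 53.0% under upper quartile scaling and 17.8% under neuron scaling, which took the lower share to 27.3% from 46.2% between TBI regions and to 0.824% and 1.49% in cortex and thalamus. Under TMM the difference of Gabra5 between TBI regions passed (adjusted p = 0.0491). The cause of these shifts was not tested. With 6 rats a group, small changes such as those of Gabra2 in thalamus and of Gabra3 and Gabrd in cortex lay near the threshold.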
